A study of Moricandia moricandioides and Moricandia arvensis and Moricandia suffruticosa with 11 samples.

Results

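The 2 C3–C4 intermediates of the study, *M. arvensis* (line MOR1) and *M. suffruticosa*, were compared with each other by the raw read counts of their leaf transcripts. The comparison uses 7 of the 11 libraries: plants 9, 12, 13 and 15 of *M. arvensis* and plants 6, 7 and 8 of *M. suffruticosa*, each library being a separate plant by the labels. Of 33602 gene models, the 15570 with enough reads were tested. The other 4 libraries, from plants 6, 8, 12 and 15 of the C3 species *M. moricandioides*, added to the estimate of the spread, and their levels are given beside some transcripts for orientation. All plants were wild type and untreated, grown in the same climate chamber, and their mature leaves were taken about 2 h into the light period, before flowering. Each species was represented by a single seed line, from a different seed collection, so a difference between species and one between lines cannot be told apart. Plant age was not given in the sources used here.

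In a C3–C4 intermediate leaf, glycine made by photorespiration in the mesophyll is decarboxylated by glycine decarboxylase in the mitochondria of the bundle sheath. The CO2 set free there can be fixed again by Rubisco of the bundle sheath, which lowers the CO2 compensation point. Both species carry this trait, so the comparison asks where leaves of the same photosynthesis type differ in their transcripts.

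Transcript abundance is given in rpm, the reads per 1000000 counted reads of a library, in the order of the plant numbers. The reads were assigned by their best match in protein space to *Arabidopsis thaliana* coding sequences. Genes are therefore named by their Arabidopsis counterparts, and the roles given are those known from Arabidopsis. A difference in transcript level and one in how well the reads of a species match the Arabidopsis gene cannot be told apart. Counted reads were 11216204 to 13422102 per library in *M. arvensis* and 10987959 to 14144453 in *M. suffruticosa*. Log2-fold changes (*M. arvensis* minus *M. suffruticosa*, ± SE) and adjusted p-values are from the quasi-likelihood F test of edgeR over all 15570 transcripts. The SE was back-calculated as the absolute log2-fold change over the square root of the F statistic. It is therefore approximate, above all where a species had few reads. The rpm values are not rescaled, while the fits use TMM factors, which were 0.834 to 1.17 in *M. arvensis* and 0.953 to 1.06 in *M. suffruticosa*. A transcript is called higher or lower in *M. arvensis* where its adjusted p was 0.01 at most.

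The first principal component of the 7 libraries held 59.8% of the variance and separated the species, with scores of 29.4 to 53.3 in *M. arvensis* and -60.9 to -57.4 in *M. suffruticosa*. The second held 21.8% and set *M. arvensis* plant 9, with a score of 64.2, apart from plants 13 and 15, with -32.0 and -31.4. The third held 9.06% and set *M. suffruticosa* plant 8 (-43.0) apart from plants 6 and 7 (21.9 and 18.2). *M. arvensis* plants 13 and 15 lay close together (chi-square per gene 4.67 between their counts, where counting noise alone gives 1), and so did *M. suffruticosa* plants 6 and 7 (8.03). The other pairs within a species had 34.8 to 80.9. Since close libraries may not vary as freely as separate plants, calls are also given after each close pair was merged into 1 library, which leaves 3 *M. arvensis* and 2 *M. suffruticosa* libraries.

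**Figure D1:**
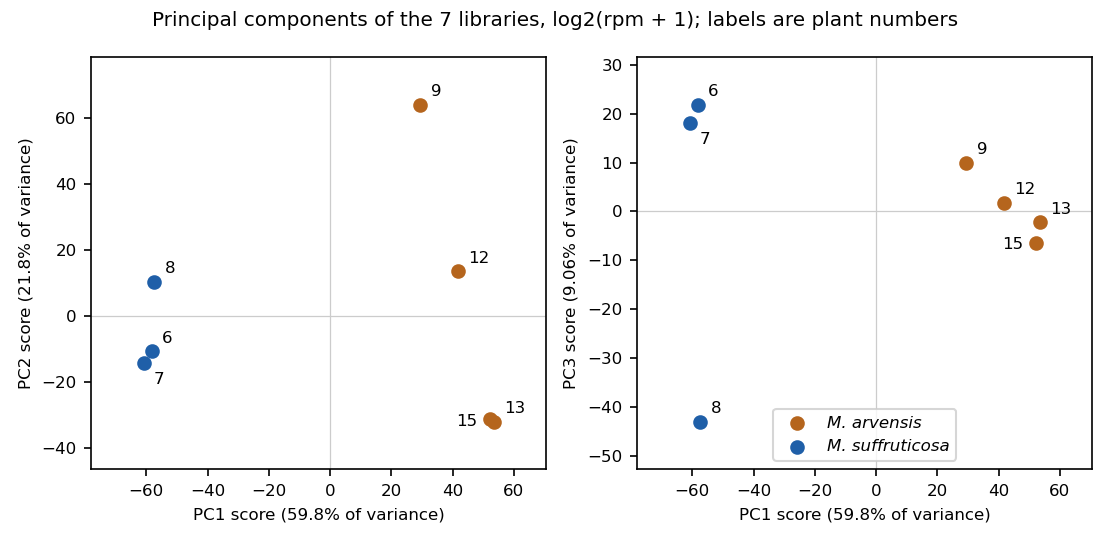
Scores of the 4 *M. arvensis* and 3 *M. suffruticosa* libraries on the first 3 principal components of log2(rpm + 1), one point per plant, labelled by plant number. The first component (59.8% of the variance) separates the species, the second sets *M. arvensis* plant 9 apart and the third sets *M. suffruticosa* plant 8 apart.

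Between the intermediates, 3007 transcripts differed (19.3% of those tested): 1463 were higher (9.4%) and 1544 lower (9.92%) in *M. arvensis*. The median size of a called difference was 1.38 on the log2 scale. At least 4-fold differences were found for 418 transcripts higher and 471 lower in *M. arvensis*. The 4 *M. arvensis* and 3 *M. suffruticosa* plants did not overlap for 38.1% of the tested transcripts, and for 2920 of the 3007 called. A lack of overlap is therefore the usual case for a called transcript and adds little to its call. With the close libraries merged, 450 were higher (2.85%) and 579 lower (3.67%), together 6.51% of the 15798 tested in that fit, and 1026 of the 3007 calls held. Leaving out *M. suffruticosa* plant 7 left 665 higher and 884 lower, leaving out plant 6 left 750 and 986, and 1401 transcripts (9.0%) were called in all 11 fits that leave out 1 library.

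**Figure D2:**
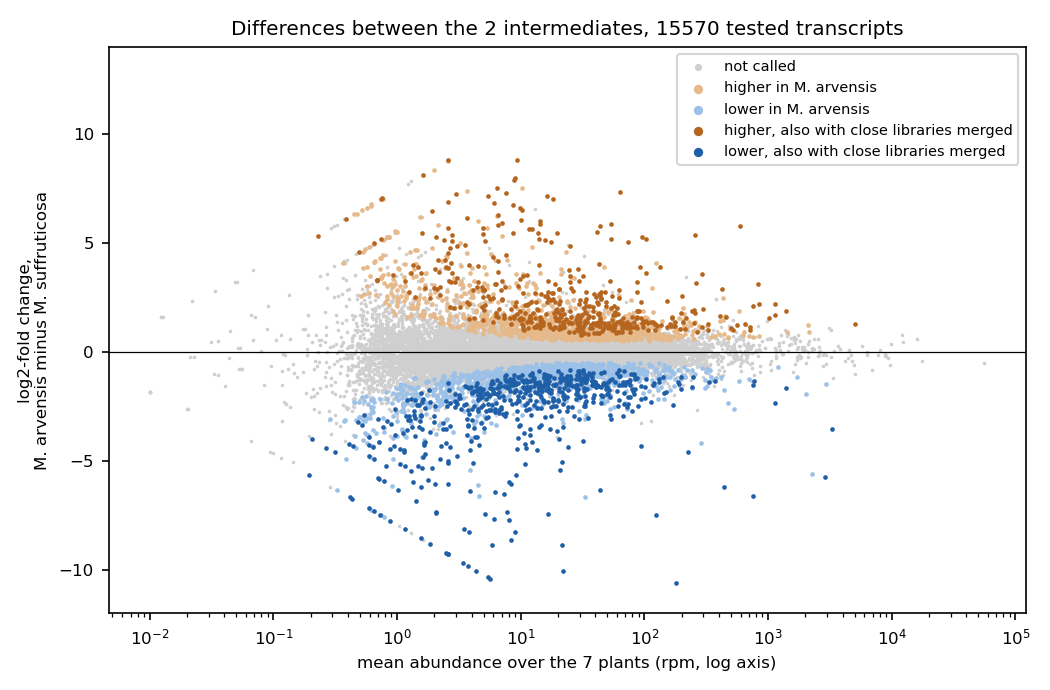
Log2-fold change (*M. arvensis* minus *M. suffruticosa*) of each of the 15570 tested transcripts against its mean abundance over the 7 plants (rpm, log axis). Grey points were not called, light coloured points were called and dark coloured points were also called with the close libraries merged (1026 transcripts). The called transcripts lie on both sides of 0 over most of the range of abundance.

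No transcript of primary carbon fixation passed the test. None of the 19 tested transcripts of photorespiration, 18 of the Calvin–Benson–Bassham (CBB) cycle, 35 of light harvesting and the photosystems, or 17 of sucrose metabolism and sugar transport was called by edgeR, against 19.3% of all transcripts. An unadjusted p under 0.05 was reached by 4, 1, 4 and 4 of them in that order of lists. DESeq2 called 2, 0, 3 and 0, the exact test of edgeR 2, 0, 2 and 0, and limma-voom 7, 5, 15 and 8. The median log2-fold changes were 0.29, 0.11, -0.14 and 0.09, beside 0.01 for all tested transcripts. Above 0 lay 14 of 19, 13 of 18, 11 of 35 and 9 of 17, beside 7856 of all 15570. The summed level of the photorespiration list, untested members included, was 25120 to 32429 rpm in *M. arvensis*. In *M. suffruticosa* it was 20205 to 24390 rpm, so the plants did not overlap, while they did for the other lists.

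*SHM1* (AT4G37930), the serine hydroxymethyltransferase that works with glycine decarboxylase in the mitochondria, had 7105, 6396, 5319 and 6081 rpm in *M. arvensis*, against 4457, 4465 and 6074 rpm in *M. suffruticosa*. The plants overlapped, and the log2-fold change was 0.29 ± 0.24 (adjusted p = 0.377, edgeR). The reads of the P-protein of glycine decarboxylase were all counted on *GLDP2* (AT2G26080), with 3693, 4007, 3707 and 4680.1 rpm in *M. arvensis*, against 2648, 2832 and 3994 rpm in *M. suffruticosa* (log2-fold change 0.29 ± 0.22, adjusted p = 0.333, edgeR). The row of its near copy *GLDP1* had no read in any library, and which copy the reads came from cannot be told from these counts alone. The paper, however, found only *GLDP1*-like sequences in its *Moricandia* leaf assemblies. It regards a loss of the *GLDP2* copy at the base of the Brassiceae as most likely. The row name *GLDP2* therefore does not identify the copy. On this row too a plant of *M. suffruticosa* reached the range of *M. arvensis*. *LHCB1.2* (AT1G29910), a light-harvesting protein of photosystem II, had the most reads of its list, with 49005, 60679, 41544 and 41119 rpm in *M. arvensis* against 58930.4, 55679 and 83110.2 rpm in *M. suffruticosa* (log2-fold change -0.49 with an adjusted p of 0.23, edgeR). The Rubisco small subunit *RBCS3B* (AT5G38410) showed 19855, 12762, 14983 and 14189 rpm and 19189.9, 19850.3 and 22488 rpm in the same order of species, again with an overlap.

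Among the enzymes of the C4 cycle and its shuttles, single members differed. Of 36 tested enzymes and transporters of the C4 cycle and of the shuttles between mesophyll and bundle sheath, 4 were higher and 6 lower in *M. arvensis*. The share called was 27.8%, beside 19.3% of all tested transcripts, and the median log2-fold change was -0.08. With the close libraries merged 3 and 3 were called. *PPC4* (AT1G68750), the phosphoenolpyruvate carboxylase of bacterial type, fell to 6.96, 13.9, 6.33 and 5.26 rpm in *M. arvensis*, against 33.2, 40.4 and 63.5 rpm in *M. suffruticosa* (log2-fold change -2.54 ± 0.36, adjusted p = 2.97e-04, edgeR). *PPT1* (AT5G33320), which carries phosphoenolpyruvate into plastids, had 27.8, 47.7, 41.0 and 44.2 rpm in *M. arvensis*, against 108, 104 and 112 rpm in *M. suffruticosa* (-1.50 ± 0.16, adjusted p = 6.09e-05, edgeR). Alanine aminotransferase *ALAAT1* (AT1G17290) was lower in *M. arvensis* as well (log2-fold change -1.25). For these 3 transcripts the species did not overlap, as for 2920 of the 3007 called.

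Both regulators of pyruvate, phosphate dikinase (PPDK) were higher in *M. arvensis*. *RP1* (AT4G21210) had 53.0, 72.8, 102 and 107 rpm in *M. arvensis*, against 23.1, 19.8 and 23.9 rpm in *M. suffruticosa* (log2-fold change 1.82 ± 0.18, adjusted p = 2.75e-05, edgeR), and *RP2* (AT3G01200) differed by 1.54. *PPDK* itself (AT4G15530) had 1151, 539, 248 and 239 rpm in *M. arvensis*, a range that held all 3 *M. suffruticosa* plants at 454, 509 and 702 rpm (log2-fold change 0.06 with an adjusted p of 0.948, edgeR). The carbonic anhydrase *BCA6* (AT1G58180) was higher in *M. arvensis* by 1.76, while *BCA1* (AT3G01500), the member with the most reads, had 5841, 3033, 3646 and 3434 rpm in *M. arvensis*, against 5885, 5588 and 6958 rpm in *M. suffruticosa* and was not called.

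The called starch transcripts were lower in *M. arvensis*. Of 33 tested, 4 were lower and 0 higher in *M. arvensis* (12.1%, where 9.92% of all tested transcripts were lower and 19.3% called either way, median log2-fold change -0.13), and 2 with the close libraries merged. The beta-amylase *BAM5* (AT4G15210), which cleaves starch and related glucans, had 3.52, 1.34, 0.894 and 0.603 rpm in *M. arvensis*, against 142, 239 and 485 rpm in *M. suffruticosa*, a log2-fold change of -7.48 ± 0.78 (adjusted p = 4.62e-05, edgeR). The mean of *M. moricandioides*, 315 ± 172 rpm (SD, n = 4), lay within the range of *M. suffruticosa*. Starch synthase *SS2* (AT3G01180) had 39.8, 41.6, 37.4 and 34.0 rpm and 178, 185 and 144 rpm in the same order of species (-2.17 ± 0.32, adjusted p = 4.45e-04, edgeR). The granule-bound starch synthase *GBSS1* (AT1G32900), which makes amylose, averaged 354 ± 33.3 rpm in *M. arvensis*, against 879 ± 145 rpm in *M. suffruticosa* (SD, n = 4 and 3), with an adjusted p of 0.00175 in edgeR and of 0.0157 once the close libraries were merged. The plastid glucan, water dikinase *GWD1* (AT1G10760), which starts starch breakdown, had 532, 488, 1288 and 1283 rpm in *M. arvensis*, against 419.6, 466 and 184 rpm in *M. suffruticosa* and was not called (adjusted p = 0.0216, edgeR), although the plants did not overlap.

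Both nitrate reductases and a few transcripts of plastid pigments and photoprotection were higher in *M. arvensis*. Of 17 nitrogen transcripts 3 were called higher and 0 lower (17.6%, near the 19.3% of all tested transcripts), and 2 with the close libraries merged. The nitrate reductases were among them: *NIA1* (AT1G77760) had 749, 986, 955 and 1024 rpm in *M. arvensis*, against 485, 434 and 395 rpm in *M. suffruticosa* (log2-fold change 1.03 ± 0.14, adjusted p = 2.64e-04, edgeR), and *NIA2* (AT1G37130) differed by 1.25 ± 0.18 (adjusted p = 3.06e-04, edgeR). In the carotenoid list 2 of 12 were higher and 1 lower (25.0%), and 1 and 0 with the close libraries merged. The zeta-carotene desaturase *ZDS* (AT3G04870) had 239, 212, 230.4 and 249 rpm in *M. arvensis*, against 100.2, 102 and 96.5 rpm in *M. suffruticosa* (1.19 ± 0.16, adjusted p = 1.99e-04, edgeR). *NYC1* (AT4G13250), the chlorophyll *b* reductase that begins chlorophyll breakdown, was 1.55 ± 0.16 higher in *M. arvensis* on the log2 scale (adjusted p = 4.21e-05, edgeR). It was the only call among 10 tested transcripts of chlorophyll breakdown (10.0%, below the 19.3% of all tested transcripts), and remained with the close libraries merged. Of 14 transcripts of photoprotection and cyclic electron flow 4 were higher and 0 lower (28.6%), the stress-enhanced protein *SEP2* (AT2G21970) at 149.9, 141, 135 and 127 rpm in *M. arvensis*, against 62.6, 60.9 and 67.9 rpm in *M. suffruticosa* being the strongest by its adjusted p of 0.00115 in edgeR. None of these 4 was called with the close libraries merged (adjusted p = 0.0108 for *SEP2*).

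Some transcripts were almost confined to 1 of the 2 intermediates. Of those called, 61 were higher in *M. arvensis* and had at most 3 reads over the *M. suffruticosa* plants, and 64 were the reverse. Among them 15 had no read in *M. suffruticosa* and 22 no read in *M. arvensis*. A gene that is silent, one that was lost and one whose reads were assigned elsewhere cannot be told apart in these counts.

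*PHYC* (AT5G35840), phytochrome C, a receptor of red light, had no read in any *M. arvensis* plant, against 12.0, 11.8 and 15.7 rpm (510 reads) in *M. suffruticosa* and 10.2 ± 1.88 rpm in *M. moricandioides* (SD, n = 4). It was at least 212-fold lower in *M. arvensis*, taking 3 reads over the 4 plants as the floor (adjusted p = 3.03e-06, edgeR). A thioredoxin family protein (AT4G10000) had 2 reads in *M. arvensis*, against 1991 in *M. suffruticosa*, a ratio of 1243 (95% exact interval of counting error 344 to 10272). *RFI2* (AT2G47700), a RING-finger protein of red-light signalling, had 3 reads in *M. arvensis*, against 823 in *M. suffruticosa*, a ratio of 343 (117 to 1665). The sterol glucosyltransferase *UGT80B1* (AT1G43620) had 3 and 555 reads in that order of species. All 4 had many reads in *M. moricandioides* as well: the thioredoxin had 1401 reads there, *RFI2* 1553 and *UGT80B1* 1286.

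Other transcripts had few reads in *M. arvensis* and in *M. moricandioides* alike. The aquaporin-like protein NIP4;1 (AT5G37810) had no read in *M. arvensis* and 16.4, 16.3 and 5.01 rpm in *M. suffruticosa*, at least 215-fold lower in *M. arvensis*, and averaged 0.528 rpm in *M. moricandioides*. A 2-oxoglutarate dependent oxygenase (AT5G12270) had 0.0783, 0, 0.0745 and 0.259 rpm in *M. arvensis*, against 58.1, 64.1 and 27.7 rpm in *M. suffruticosa* (log2-fold change -8.85 ± 0.64, adjusted p = 4.26e-06, edgeR), with 0.483 rpm in *M. moricandioides*. In both cases plant 8 had the lowest value of *M. suffruticosa*.

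The transcripts almost confined to *M. arvensis* included defence genes. *RPP13* (AT3G46530), an intracellular immune receptor with a nucleotide-binding site and leucine-rich repeats (NBS-LRR), had 3.52, 15.8, 21.0 and 21.6 rpm in *M. arvensis*, lowest in plant 9, and 2 reads in *M. suffruticosa*, a ratio of 302 (95% exact interval 83.3 to 2498; adjusted p = 6.30e-05, edgeR). A cystatin-type proteinase inhibitor (AT5G56910) had 801 reads in *M. arvensis*, against 1 in *M. suffruticosa*, and an F-box protein (AT3G03360) 778 and 2. *M. moricandioides* had 2 reads of *RPP13*, 23 of the inhibitor and 2 of the F-box protein. A peroxidase (AT5G39580) was uneven within *M. arvensis*, with 0.939, 2.41, 34.0 and 33.9 rpm, against 3 reads in *M. suffruticosa*, and its call (adjusted p = 0.00408, edgeR) was lost without any 1 of the *M. suffruticosa* plants (adjusted p up to 0.0221) or with the close libraries merged (0.0291).

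**Figure D3:**
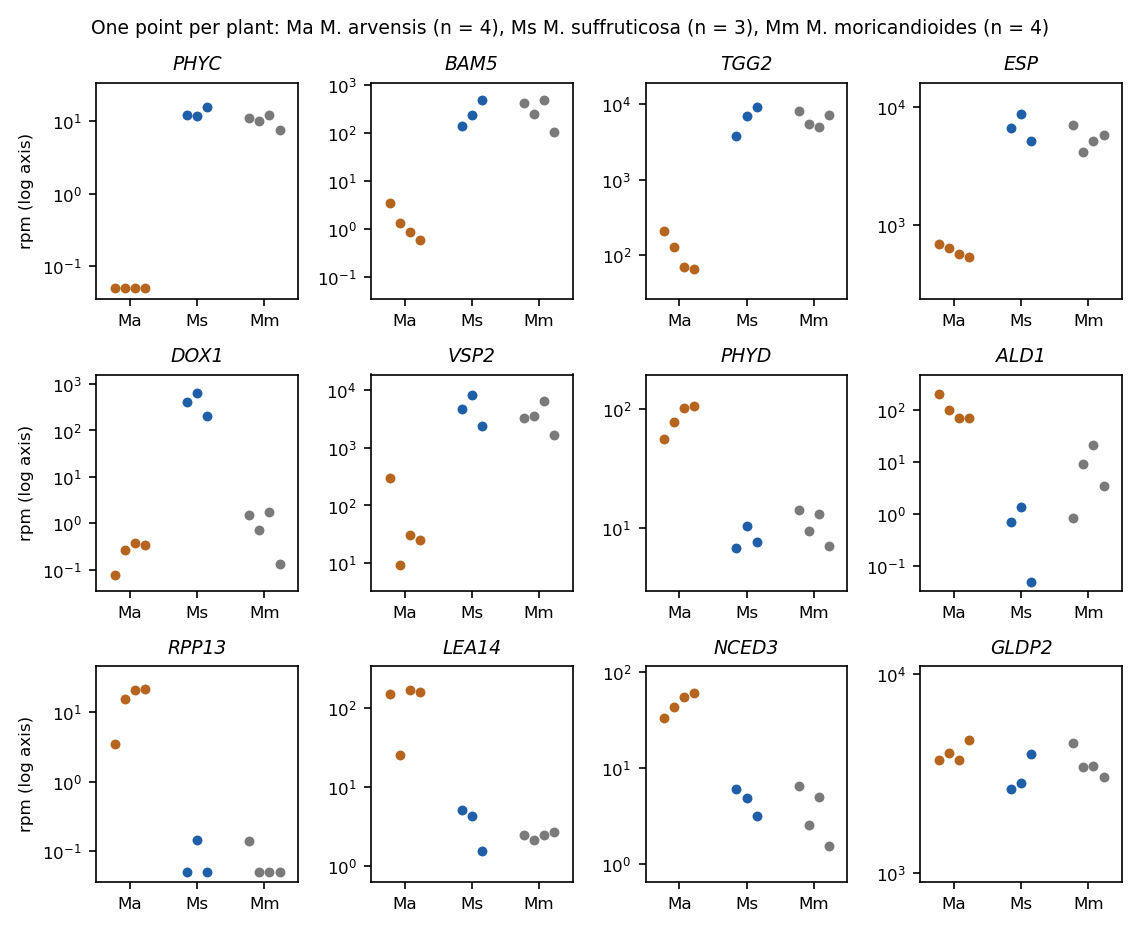
Abundance (rpm, log axis) of 12 transcripts in each plant, one point per plant, for *M. arvensis* (n = 4), *M. suffruticosa* (n = 3) and *M. moricandioides* (n = 4), with values under 0.05 rpm drawn at 0.05. *PHYC*, *BAM5*, *TGG2*, *ESP*, *DOX1* and *VSP2* are low in every *M. arvensis* plant, and *PHYD*, *ALD1*, *RPP13*, *LEA14* and *NCED3* are low in every *M. suffruticosa* plant. *GLDP2*, the row with all reads of the P-protein, overlaps, and its name does not identify the copy.

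Light perception and the clock differed member by member. Of 27 photoreceptors and light signalling transcripts, 5 were called higher and 3 lower in *M. arvensis* (29.6%, beside 19.3% of all tested transcripts, median -0.08). With the close libraries merged 2 and 3 were called. While *PHYC* had no read in *M. arvensis*, phytochrome D, *PHYD* (AT4G16250), had 55.6, 77.7, 102 and 106 rpm in *M. arvensis*, against 6.87, 10.5 and 7.64 rpm in *M. suffruticosa*, a log2-fold change of 3.28 ± 0.26 (adjusted p = 6.75e-06, edgeR). Reads of near-identical genes can be split between them, and *PHYB* (AT2G18790), the closest relative of *PHYD*, had 23.4, 37.6, 52.2 and 55.5 rpm in *M. arvensis*, against 48.9, 56.6 and 86.5 rpm in *M. suffruticosa* and was not called (adjusted p = 0.045). The sum of *PHYB* and *PHYD* was 79.0, 115, 155 and 161 rpm in *M. arvensis*, against 55.7, 67.0 and 94.2 rpm in *M. suffruticosa*, where plant 9 of *M. arvensis* lay below plant 8 of *M. suffruticosa*. The blue-light receptor *PHOT1* (AT3G45780), which directs phototropism, had 258, 263, 310.0 and 316 rpm in *M. arvensis*, against 88.2, 95.8 and 60.9 rpm in *M. suffruticosa* (1.77 ± 0.18, adjusted p = 3.57e-05, edgeR), while its partner *NPH3* (AT5G64330) was lower in *M. arvensis* (log2-fold change -1.14) and *PHOT2* (AT5G58140) was not called.

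Of 20 clock transcripts 6 were called higher and 2 lower in *M. arvensis* (40.0%, beside 19.3% of all tested transcripts, median -0.12). With the close libraries merged 2 and 1 were called. The evening-phased repressor *PRR5* (AT5G24470) had 99.6, 64.1, 197 and 194 rpm in *M. arvensis*, against 23.7, 22.3 and 12.9 rpm in *M. suffruticosa* (log2-fold change 2.74 ± 0.39, adjusted p = 3.24e-04, edgeR). The RNA-binding slave oscillator *GRP7* (AT2G21660) had 1077, 1034, 2451 and 2309 rpm and 359, 365 and 309 rpm in that order of species (2.22 ± 0.27, adjusted p = 1.23e-04, edgeR). In both, plants 13 and 15 were the highest of *M. arvensis*. *CHE* (AT5G08330), a repressor of the morning gene *CCA1*, was lower in *M. arvensis* (log2-fold change -1.95 with an adjusted p of 1.61e-05, edgeR). *TOC1* (AT5G61380), an evening repressor, was called higher at 12.0, 4.99, 34.0 and 34.1 rpm in *M. arvensis* against 2.27, 3.11 and 2.37 rpm in *M. suffruticosa* (adjusted p = 0.00223, edgeR), a call lost without *M. suffruticosa* plant 6, 7 or 8 (adjusted p up to 0.0136) and with the close libraries merged (0.0237). *PRR7* (AT5G02810), the uncalled member with the most reads, differed by 0.04. All leaves were taken once, so a difference in level and one in phase cannot be told apart.

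The called transcripts for the breakdown of glucosinolates, the mustard oil precursors of the Brassicaceae, were lower in *M. arvensis*. Of 7 tested transcripts of glucosinolate breakdown and transport 4 were lower and 0 higher (57.1%, beside 19.3% of all tested transcripts, median -1.13). Above 0 lay 2, which were not called, and 3 were called with the close libraries merged. *TGG2* (AT5G25980), a myrosinase that cleaves glucosinolates, had 208, 131, 69.7 and 67.2 rpm in *M. arvensis*, against 3729, 6908 and 9199 rpm in *M. suffruticosa* (log2-fold change -5.75 ± 0.56, adjusted p = 2.69e-05, edgeR), with 6376 ± 1388 rpm in *M. moricandioides* (SD, n = 4). The row of its near copy *TGG1* had no read in any library, and whether reads of *TGG1* were counted on *TGG2* cannot be told from these counts. *ESP* (AT1G54040), the epithiospecifier protein that turns the products towards nitriles, had 686, 632, 559 and 530.3 rpm in *M. arvensis*, against 6730.1, 8779 and 5173 rpm in *M. suffruticosa* (-3.52 ± 0.28, adjusted p = 7.26e-06, edgeR) and 5587 ± 1242 rpm in *M. moricandioides*. *NSP2* (AT2G33070), a nitrile specifier protein, was lower in *M. arvensis* (log2-fold change -2.29 with an adjusted p of 3.60e-04, edgeR). For all 3 every *M. arvensis* plant lay below every *M. suffruticosa* plant (2920 of the 3007 called transcripts did not overlap). The nitrilase *NIT2* (AT3G44300) was lower (log2-fold change -1.13), with an adjusted p of 0.0061 in edgeR and of 0.048 with the close libraries merged, and its call was lost without *M. arvensis* plant 12, 13 or 15 or *M. suffruticosa* plant 6, 7 or 8 (up to 0.0221).

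In glucosinolate synthesis the number of calls depended on the test. Of 15 transcripts of the aliphatic pathway, 0 had a log2-fold change above 0 and the median was -0.89, but edgeR called 2 (13.3%), the sulfotransferase *SOT17* (AT1G18590) and the aminotransferase *BCAT3* (AT3G49680). Neither was called with the close libraries merged (adjusted p = 0.0387 and 0.0345, edgeR) or without *M. arvensis* plant 13 or *M. suffruticosa* plant 6 or 7 (adjusted p up to 0.0283 and 0.0148). DESeq2 called 7 of the 15, the exact test of edgeR 10 and limma-voom 14, and 11 had an unadjusted p under 0.05. Of 10 of the indole pathway 3 were lower and 0 higher (30%, beside 19.3% of all tested transcripts), and 2 with the close libraries merged. *GSTF9* (AT2G30860), a glutathione S-transferase of glucosinolate synthesis, had 313, 404, 489 and 523 rpm in *M. arvensis*, against 1227, 1163 and 1188 rpm in *M. suffruticosa* (-1.54 ± 0.21, adjusted p = 2.38e-04, edgeR). *ASA1* (AT5G05730), which makes the tryptophan precursor anthranilate, was lower (log2-fold change -1.55 with an adjusted p of 4.71e-04, edgeR).

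Defence transcripts differed in both directions. Of 18 jasmonate transcripts 3 were called higher and 5 lower in *M. arvensis* (44.4%, beside 19.3% of all tested transcripts, median -0.28). With the close libraries merged 1 and 1 were called. The alpha-dioxygenase *DOX1* (AT3G01420), which oxidises fatty acids after attack, had 0.0783, 0.267, 0.373 and 0.345 rpm in *M. arvensis*, against 417, 640.1 and 200.2 rpm in *M. suffruticosa*, a log2-fold change of -10.62 ± 0.64 (adjusted p = 1.10e-06, edgeR), and 1.03 rpm on average in *M. moricandioides*. The vegetative storage protein *VSP2* (AT5G24770), a marker of jasmonate response, had 296, 9.27, 31.0 and 25.1 rpm in *M. arvensis*, highest in plant 9, against 4706, 8289.9 and 2368 rpm in *M. suffruticosa* (-5.60 ± 1.14, adjusted p = 0.003, edgeR). Its call was lost without *M. suffruticosa* plant 7 (adjusted p = 0.0108) and with the close libraries merged (0.0217). The hevein-like *PR4* (AT3G04720) was higher in *M. arvensis* at 22.7, 15.6, 13.9 and 15.9 rpm, against 2.34, 1.27 and 0.819 rpm in *M. suffruticosa* (3.51 ± 0.47, adjusted p = 2.32e-04, edgeR).

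Of 11 salicylic acid defence transcripts 3 were called higher and 0 lower (27.3%, beside 19.3% of all tested transcripts, median 1.33). With the close libraries merged 1 was called. *ALD1* (AT2G13810), an aminotransferase that makes the immune signal precursor of pipecolic acid, had 203, 101, 69.8 and 70.2 rpm in *M. arvensis*, highest in plant 9, and 0.708, 1.34 and 0 rpm in *M. suffruticosa* (log2-fold change 7.32 ± 1.19, adjusted p = 7.44e-04, edgeR). *CBP60G* (AT5G26920), an activator of salicylic acid synthesis, had 1.49, 13.4, 33.7 and 35.3 rpm and 0.354, 0.495 and 1.18 rpm in that order of species, so plant 9 was the lowest here. Its call (adjusted p = 0.00309, edgeR) was lost without *M. suffruticosa* plant 6 or 7 (adjusted p up to 0.0195) and with the close libraries merged (0.032).

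Of 84 tested NBS-LRR disease resistance proteins, the receptors of pathogen effectors, 20 were higher and 1 lower in *M. arvensis*. The share called was 25.0%, beside 19.3% of all tested transcripts, where 9.4% were higher and 9.92% lower. With the close libraries merged 11 and 1 were called. Their median log2-fold change was 0.81, and 70 of 84 lay above 0, beside 7856 of the 15570 tested. A TIR-type receptor (AT5G36930) had 10.4, 9.36, 25.9 and 24.0 rpm in *M. arvensis*, against 0, 0.212 and 0.546 rpm in *M. suffruticosa* (6.06 ± 0.65, adjusted p = 5.17e-05, edgeR), and *RPM1* (AT3G07040) had 2.03, 11.1, 18.3 and 17.8 rpm and 0.142, 0.283 and 0.091 rpm in that order (5.91 ± 0.79, adjusted p = 2.19e-04, edgeR). Both had their higher values in plants 13 and 15. Genes of this family are near-identical in parts, and reads may be split between them. Of 25 tested protease and trypsin inhibitors 4 were higher and 2 lower (24.0%), and 16 lay above 0. With the close libraries merged 1 and 2 were called. A Kunitz-type protease inhibitor (AT1G72290) was lower in *M. arvensis*, with 6.18, 4.73, 32.9 and 34.6 rpm in *M. arvensis*, against 1406, 1670.2 and 2150.3 rpm in *M. suffruticosa* (-6.63 ± 0.87, adjusted p = 1.99e-04, edgeR).

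Several genes induced by darkness and senescence were higher in *M. arvensis*. Of 16 tested 7 were higher and 0 lower (43.8%, beside 19.3% of all tested transcripts, median 1.04). Above 0 lay 15 of 16, and 3 were called with the close libraries merged. *DIN10* (AT5G20250), a raffinose synthase-like protein induced when sugar is short, had 167, 91.1, 304 and 329.8 rpm in *M. arvensis*, against 16.4, 16.9 and 9.56 rpm in *M. suffruticosa* (log2-fold change 3.89 ± 0.40, adjusted p = 4.21e-05, edgeR). *D2HGDH* (AT4G36400), a mitochondrial dehydrogenase of amino acid breakdown, had 37.9, 61.8, 92.7 and 83.2 rpm and 9.70, 11.03 and 14.9 rpm in that order (2.44 ± 0.26, adjusted p = 4.62e-05, edgeR). The senescence regulator *NAP* (AT1G69490) was 2.30 ± 0.39 higher on the log2 scale (adjusted p = 9.59e-04, edgeR), and *JUB1* (AT2G43000), a NAC factor that delays senescence, was called at 4.54 but not without *M. suffruticosa* plant 6 or 7 (adjusted p up to 0.0173) or with the close libraries merged (0.028). For each of these 4 every *M. arvensis* plant lay above every *M. suffruticosa* plant (2920 of the 3007 called transcripts did not overlap). *NAP* belongs to the NAC family, of which 10 of 43 were higher and 2 lower (27.9%, and 5 and 1 with the close libraries merged). NAC domain protein 3 (AT3G29035) had 14.7, 15.4, 37.8 and 39.9 rpm in *M. arvensis*, against 0.779, 0.848 and 0.455 rpm in *M. suffruticosa* (5.14 ± 0.44, adjusted p = 1.21e-05, edgeR).

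Abscisic acid (ABA), the hormone of drought, had called members in its synthesis, breakdown, perception and response. Of 20 transcripts 5 were called higher and 2 lower in *M. arvensis* (35.0%, beside 19.3% of all tested transcripts, median 0.11). With the close libraries merged 3 and 2 were called. *NCED3* (AT3G14440), the rate-limiting dioxygenase of ABA synthesis, had 33.1, 43.8, 54.5 and 60.3 rpm in *M. arvensis*, against 6.02, 4.88 and 3.19 rpm in *M. suffruticosa* (log2-fold change 3.27 ± 0.39, adjusted p = 1.15e-04, edgeR). *CYP707A2* (AT2G29090), which inactivates ABA, was lower in *M. arvensis* (log2-fold change -1.92), and the receptor *PYL4* (AT2G38310) had 2.03, 6.87, 11.2 and 9.83 rpm and 55.2, 56.6 and 47.3 rpm in that order (-2.94 ± 0.31, adjusted p = 5.24e-05, edgeR). The phosphatase *ABI1* (AT4G26080), which holds the pathway back, and the transcription factor *ABF3* (AT4G34000), which carries it out, were higher in *M. arvensis* by 1.13 and 1.55. None of these 5 overlapped between the species, like 2920 of the 3007 called transcripts.

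Of 14 cold and drought induced proteins 3 were higher and 1 lower (28.6%, beside 19.3% of all tested transcripts). The 3 higher ones remained with the close libraries merged. The late embryogenesis protein *LEA14* (AT1G01470) had 149.7, 25.7, 169.9 and 161 rpm in *M. arvensis*, lowest in plant 12, and 5.10, 4.31 and 1.55 rpm in *M. suffruticosa* (5.07 ± 0.62, adjusted p = 1.31e-04, edgeR). *ERD7* (AT2G17840), an early dehydration-responsive protein, had 97.3, 79.0, 104 and 119 rpm and 14.02, 12.7 and 13.1 rpm in that order (2.86 ± 0.19, adjusted p = 1.95e-06, edgeR). The dehydrin *XERO2* (AT3G50970) was 3.81 higher on the log2 scale. The median of the list was -0.22, and 6 of the 14 lay above 0.

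**Figure D4:**
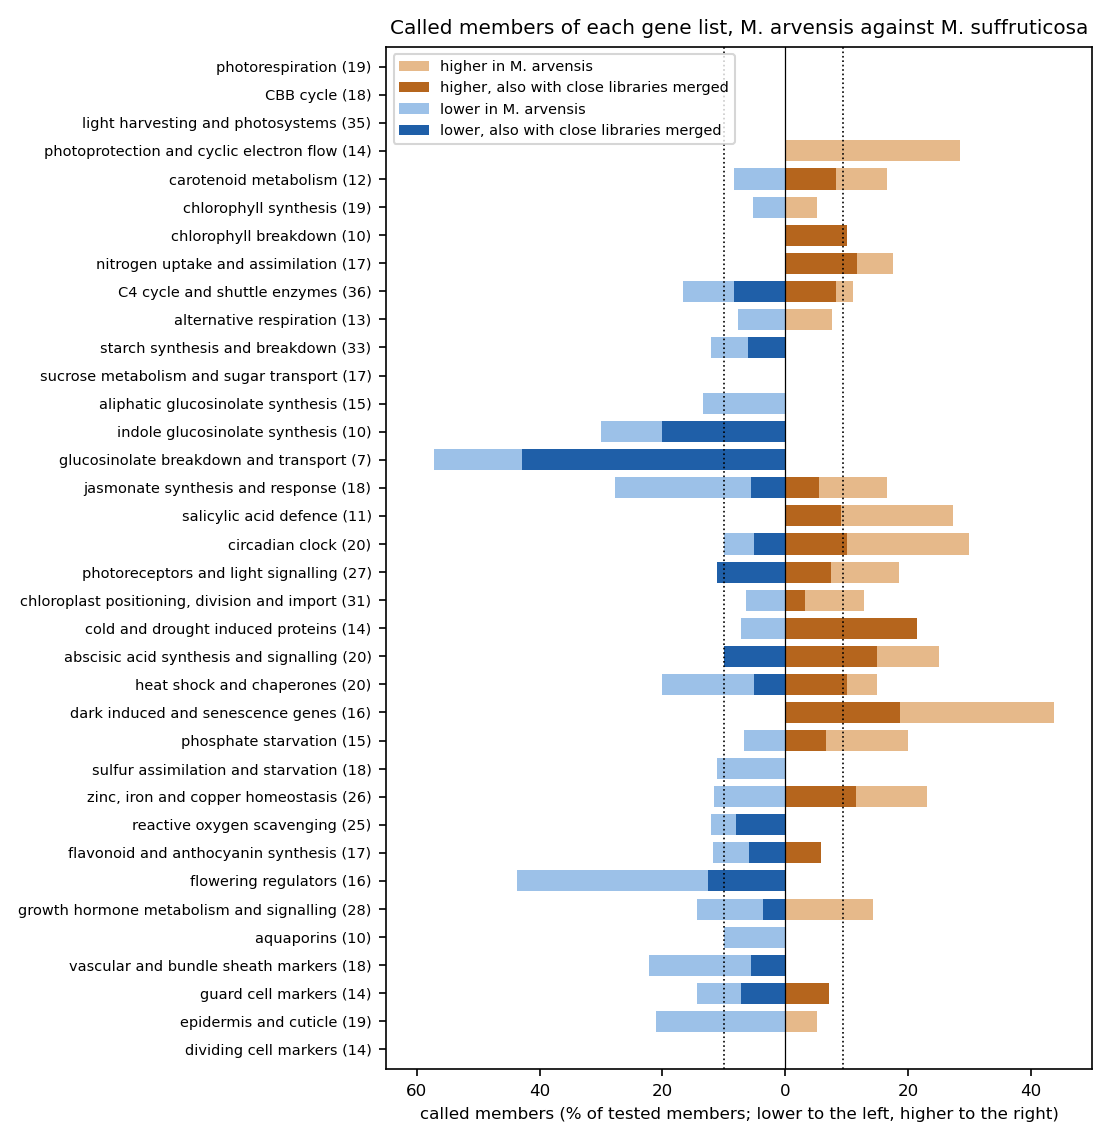
Members of each gene list called higher (right) or lower (left) in *M. arvensis* than in *M. suffruticosa*, as a percentage of the tested members of the list (number in brackets). Dark bars are members also called with the close libraries merged, and the dotted lines mark the 9.92% lower and 9.4% higher of all 15570 tested transcripts. Photorespiration, the CBB cycle, light harvesting, sucrose metabolism and the markers of dividing cells have no bar. Lists with fewer than 5 tested members are left out.

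Some transcripts of metal transport differed, and a few of antioxidant enzymes. Of 26 zinc, iron and copper transcripts 6 were called higher and 3 lower in *M. arvensis* (34.6%, median 0.65), and 3 and 0 with the close libraries merged. The zinc transporter *ZIP5* (AT1G05300) had 11.03, 55.0, 115 and 109 rpm in *M. arvensis*, lowest in plant 9, and 4.32, 5.51 and 2.09 rpm in *M. suffruticosa* (4.03 ± 0.63, adjusted p = 6.03e-04, edgeR), and *ZIP10* (AT1G31260) had 2.82, 4.37, 4.77 and 4.65 rpm and 0.425, 0.141 and 0 rpm in that order (4.24 ± 0.43, adjusted p = 3.80e-05, edgeR). The plastid copper/zinc superoxide dismutase *CSD2* (AT2G28190) was lower in *M. arvensis*, at 36.4, 42.8, 54.9 and 45.1 rpm, against 66.6, 132 and 132 rpm in *M. suffruticosa* (-1.36 ± 0.24, adjusted p = 0.00132, edgeR), and *M. moricandioides* averaged 541 rpm. The stromal ascorbate peroxidase *SAPX* (AT4G08390) was lower (log2-fold change -1.57 with an adjusted p of 3.78e-05, edgeR). Both belong to a list of 25 reactive oxygen scavengers with 3 lower and 0 higher (12.0%, below the 19.3% of all tested transcripts), and 2 with the close libraries merged. *CAT3* (AT1G20620), a catalase and the member with the most reads, was not called (log2-fold change 0.36).

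All called flowering regulators were lower in *M. arvensis*, 7 of 16 (43.8%, where 9.92% of all tested transcripts were lower, median -0.15). With the close libraries merged 2 were called. They act both ways on flowering: *FLC* (AT5G10140), *FLM* (AT1G77080), *MAF2* (AT5G65050) and *TOE1* (AT2G28550) repress it, and *SPL3* (AT2G33810), *SPL9* (AT2G42200) and *FVE* (AT2G19520) promote it. *FLM* had 4.70, 8.65, 5.36 and 5.78 rpm in *M. arvensis*, against 27.0, 29.2 and 26.8 rpm in *M. suffruticosa* (-2.23 ± 0.21, adjusted p = 2.37e-05, edgeR). *TOE1* had 20.3, 45.0, 57.1 and 51.0 rpm and 125, 118 and 77.3 rpm in that order (-1.39 ± 0.22, adjusted p = 7.31e-04, edgeR). *FLC*, whose effect is relieved by cold, had 78.6, 94.1, 52.1 and 47.4 rpm in *M. arvensis*, against 199, 181 and 219 rpm in *M. suffruticosa*, and its call (adjusted p = 0.0026, edgeR) was lost without *M. suffruticosa* plant 8 (adjusted p = 0.0105) and with the close libraries merged (0.0189). With the close libraries merged *MAF2*, *SPL3*, *SPL9* and *FVE* were not called either (adjusted p = 0.0271, 0.0304, 0.0292 and 0.0177). The call of *MAF2* was also lost without *M. suffruticosa* plant 6 or 7, that of *SPL9* without *M. arvensis* plant 13 or 15 or *M. suffruticosa* plant 7 or 8, and that of *SPL3* without *M. arvensis* plant 12, 13 or 15 or *M. suffruticosa* plant 7 or 8 or *M. moricandioides* plant 6 (adjusted p up to 0.0137, 0.0191 and 0.0344).

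Transcripts with many reads in both species also differed. *AILP1* (AT5G19140), an aluminium-induced protein, had 6237, 6764, 7009 and 6945 rpm in *M. arvensis*, against 3349.6, 2732 and 1993 rpm in *M. suffruticosa* (1.29 ± 0.22, adjusted p = 0.00112, edgeR). *PIFI* (AT3G15840), a plastid protein of the NDH-dependent electron flow in the dark, had 1859.9, 1413, 2494 and 2393 rpm and 671, 563 and 364 rpm in that order (1.89 ± 0.25, adjusted p = 2.02e-04, edgeR). *CYT1* (AT2G39770), which makes GDP-mannose for cell walls and ascorbate, had 1495, 1399, 1405 and 1371 rpm and 496, 518 and 424 rpm (1.54 ± 0.21, adjusted p = 2.87e-04, edgeR). For these 3 no plant overlapped, as for 2920 of the 3007 called. A germin-like protein (AT1G72610) was lower in *M. arvensis* at 619.5, 633, 885 and 847 rpm, against 2419.9, 2459 and 1924 rpm in *M. suffruticosa* (-1.66 ± 0.16, adjusted p = 2.49e-05, edgeR), and so was a lipid transfer protein (AT2G15050, log2-fold change -2.32). The plastid chaperone *CLPC1* (AT5G50920) was called higher by 0.90, but not without any 1 *M. suffruticosa* plant (adjusted p up to 0.0196) or with the close libraries merged (0.0298).

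Markers of other leaf tissues were compared to show what the leaves held. Of 18 vascular and bundle sheath markers 0 were higher and 4 lower in *M. arvensis* (22.2% called). Over all tested transcripts 19.3% were called and 9.92% were lower. With the close libraries merged 1 marker was called, *IRX3* (AT5G17420), a cellulose synthase of xylem walls. It had 37.5, 48.0, 48.1 and 52.1 rpm in *M. arvensis*, against 103, 115 and 119.9 rpm in *M. suffruticosa* (-1.34 ± 0.13, adjusted p = 3.04e-05, edgeR). The summed level of these 18 and the untested members was 829 to 1395 rpm in *M. arvensis* and 1047 to 1517 rpm in *M. suffruticosa*. Of 14 guard cell markers 1 was higher and 2 lower (21.4%, near the 19.3% of all tested transcripts). *GC1* (AT1G22690) was lower, at 23.6, 19.7, 41.1 and 38.9 rpm in *M. arvensis*, against 164, 232 and 107 rpm in *M. suffruticosa* (-2.50 ± 0.32, adjusted p = 1.76e-04, edgeR). *MYB60* (AT1G08810), a guard cell transcription factor, was higher by 1.25. The summed level of the guard cell markers was 142 to 231 rpm in *M. arvensis* and 263 to 381 rpm in *M. suffruticosa*, but without *GC1* it was 118 to 189.9 rpm in *M. arvensis* and 131 to 156 rpm in *M. suffruticosa*, and the species overlapped. Fewer cells of a type and less RNA per cell cannot be told apart in whole leaves.

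Of 19 markers of epidermis and cuticle 1 was higher and 4 lower (26.3%, beside 19.3% of all tested transcripts), and none with the close libraries merged. Their median was -0.57, and their summed levels were 1022 to 1443 rpm in *M. arvensis* and 1788 to 1951 rpm in *M. suffruticosa*. None of 14 markers of dividing cells was called by edgeR, 3 had an unadjusted p under 0.05, and DESeq2 called 2, the exact test 3 and limma-voom 3. The root beta-glucosidase *PYK10* (AT3G09260) had 0.939, 1.07, 5.29 and 7.07 rpm in *M. arvensis*, against 2.05, 0.707 and 2.09 rpm in *M. suffruticosa*. The petal and stamen gene *PI* (AT5G20240) had 1.41, 6.06, 3.65 and 3.19 rpm in *M. arvensis*, against 0.779, 0.919 and 0.182 rpm in *M. suffruticosa* (adjusted p = 0.00618, edgeR), a call lost without *M. arvensis* plant 12, 13 or 15 or *M. suffruticosa* plant 6, 7 or 8 (adjusted p up to 0.0218) and with the close libraries merged (0.0323). The part of tissue makeup in the differences above was not tested.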

How the data were processed

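Leaf RNA of 11 plants was sequenced as 1 single-end library per plant. The authors aligned the reads as translated sequences, with BLAT, to a reduced set of TAIR10 coding sequences of Arabidopsis and counted the best hit of each read (BLAT version: not given in the sources used here). Of these files, the deposited counts and the deposited rpm (reads per 1000000 counted reads) were used. The authors' own log2-fold changes, p-values and false discovery rates, their sums and means over species and their table of totals were not used. Cross-species matching counts a read only where its gene has a similar Arabidopsis gene, and close copies share reads.

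Counts of the 15570 gene models that passed filterByExpr (minimum count 10) were fitted over all 11 libraries with species as the only term, TMM factors and quasi-likelihood F tests in edgeR 4.0.16 (R 4.3.3), with Benjamini-Hochberg adjustment across all of them. The p-values measure the spread between plants of 1 line per species. Alternatives were other scalings, filters, thresholds and tools (DESeq2 1.42.0, limma-voom of limma 3.58.1, the exact test of edgeR), the 7 libraries alone, merged close libraries and each library left out. Ratios against few reads carry exact intervals that cover counting error only, as the reads have no molecular identifiers.

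The transcripts named are, between both intermediates, the 12 highest and 12 lowest log2-fold changes without overlap and with at least 10 rpm in the higher species, the 10 called in each direction with the highest mean rpm, the 6 in each direction almost confined to 1 species (at most 3 reads in the other), and up to 4 called members and 1 uncalled member of each gene list or family, from which those described were taken. *ALAAT1*, *PHYB*, *FVE*, *GLDP2*, *SPL3*, *SPL9*, *PPDK*, *ABI1*, *CHE*, *PPT1* and *NPH3* fall outside this rule and were chosen after their values were seen. Members and lists were chosen with earlier results of these data known, and the families were matched to the deposited descriptions after the files were seen.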

Additional observations from a re-analysis of the deposited data

Results flagged for a closer look

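In 3 of the 103 tested transcripts described here, 1 *M. arvensis* plant lay far from the other 3, as the gap to its nearest neighbour took up most of the range of the 4 plants. For *NIT2* plant 9 was the highest, at 1384 rpm, with a gap of 0.929 of the range. For *VSP2* it was the highest too, at 296 rpm (0.924 of the range), and all 4 plants lay below the *M. suffruticosa* plants. For *LEA14* plant 12 was the lowest, at 25.7 rpm (0.86 of the range), and lay above all *M. suffruticosa* plants. Chance alone flags about 1 in 20 such groups, so 3 of 103 is no more than chance gives, and the 3 plants of *M. suffruticosa* are too few for this check.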

How the results depend on the processing

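Leaving out 1 library at a time gave 665 to 1522 transcripts higher in *M. arvensis*, beside 1463 with all libraries, and 884 to 1704 lower, beside 1544; the fewest came without *M. suffruticosa* plant 7. With the close libraries merged the counts were 450 higher and 579 lower, with limma-voom 3757 and 3853, and at an adjusted p of 0.05 they were 2686 and 2723. DESeq2 (2183 and 2156), the exact test (2005 and 2061), the 7 libraries alone (1295 and 1274), the other scalings, no filter, a filter at 10 rpm (1069 and 1164) and a 2-fold minimum (1024 and 1173) stayed within 1.5 times. With library totals in place of TMM the split was 1399 higher and 1255 lower. Of the 91 called transcripts named, 73 were called in every fit that tested them, and none changed direction. The uncalled *PPDK* turned to -0.029 with library totals, -0.96 with limma-voom, -0.84 without *M. arvensis* plant 9, and -0.08 and -0.036 without *M. suffruticosa* plants 6 and 7, and was at most 0.36 without any 1 plant. The uncalled *PRR7* lay between -0.036 and 0.11 without any 1 plant, the lowest being without *M. arvensis* plant 13. No paired analysis was possible because the *M. arvensis* and *M. suffruticosa* plants compared share no plant number. Transcripts with too few reads over the 11 libraries were not tested. The 3 plants of *M. suffruticosa*, of which 2 lay close together, limit every count above.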

Other observations

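Some families of proteins outside the lists above, taken by their descriptions, had more calls in one direction than in the other. Over all tested transcripts 9.4% were higher, 9.92% lower and 19.3% called. Of 111 tested glycosyl hydrolases, which cut sugars from cell walls and glycosides, 7 were higher and 26 lower in *M. arvensis* (29.7%, and 0 and 10 with the close libraries merged), with a median log2-fold change of -0.21. A beta-galactosidase of family 35 (AT2G16730) had 0.626, 2.14, 2.31 and 1.12 rpm in *M. arvensis*, against 52.8, 47.3 and 45.2 rpm in *M. suffruticosa* (log2-fold change -5.04 ± 0.45, adjusted p = 1.58e-05, edgeR), and the plants did not overlap. *BGAL1* (AT3G13750), a beta-galactosidase whose description did not match this family and which is not in its counts, went the other way, at 1146, 865, 1511 and 1572 rpm and 212, 236 and 346 rpm in that order (2.20 ± 0.28, adjusted p = 1.57e-04, and 0.00432 with the close libraries merged, edgeR). Of 32 expansins and xyloglucan transferases, which loosen and rebuild cell walls, 3 were higher and 6 lower (28.1%), and 2 and 2 with the close libraries merged. *XTH9* (AT4G03210) was among the lower, at 19.6, 19.3, 25.2 and 34.1 rpm in *M. arvensis*, against 116, 159 and 177 rpm in *M. suffruticosa* (-2.69 ± 0.21, adjusted p = 6.97e-06, edgeR), while the expansin *EXPA9* (AT5G02260) was higher by 2.57. Of 27 MATE efflux proteins 1 was higher and 7 lower (29.6%, and 0 and 3 with the close libraries merged). The one with the largest change (AT3G03620) had 31.3, 15.1, 10.3 and 9.83 rpm in *M. arvensis*, against 144, 165 and 96.7 rpm in *M. suffruticosa* (-2.95 ± 0.47, adjusted p = 6.49e-04, edgeR).

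Cytosolic ribosomal proteins lay mostly below 0. Of 233 tested 48 had a log2-fold change above 0 and the median was -0.41. Yet 5 were called higher and 13 lower (7.73%, below the 19.3% of all tested transcripts), and 3 and 4 with the close libraries merged. Under the other 3 scalings 48 to 54 of them lay above 0. Library totals in place of TMM shifted the median over all tested transcripts by 0.06. Of 218 pentatricopeptide repeat proteins, which process organelle RNA, 15 were higher and 4 lower (8.72%, also below 19.3%), and 132 lay above 0. The repressor of anthocyanin synthesis *MYBL2* (AT1G71030) had 37.5, 41.0, 69.5 and 62.0 rpm in *M. arvensis*, against 4.46, 4.52 and 4.37 rpm in *M. suffruticosa* (3.48 ± 0.25, adjusted p = 3.62e-06, edgeR). The 4-coumarate ligase *4CL3* (AT1G65060) of flavonoid synthesis was lower in *M. arvensis* (log2-fold change -3.01 with an adjusted p of 2.22e-04, edgeR). In the flavonoid list 3 of 17 were called (17.6%), with a median of -0.04. Its summed level, untested members included, was 428 to 484 rpm in *M. arvensis* and 294 to 343 rpm in *M. suffruticosa*. Among 20 heat shock proteins and chaperones 3 were higher and 4 lower (35.0%), and 2 and 1 with the close libraries merged. The disaggregase *HSP101* (AT1G74310) had 29.0, 21.9, 37.2 and 42.0 rpm in *M. arvensis*, against 4.96, 5.16 and 2.55 rpm in *M. suffruticosa* (2.88 ± 0.36, adjusted p = 1.58e-04, edgeR), whereas the small heat shock protein *HSP26.5* (AT1G52560) differed by -4.67. The phosphate transporter *PHT1;4* (AT2G38940) was 1 of 87 called transcripts whose plants overlapped, with 5.01, 27.0, 137 and 146 rpm in *M. arvensis*, against 3.89, 6.72 and 3.37 rpm in *M. suffruticosa*, and its call (adjusted p = 0.00875, edgeR) was lost with the close libraries merged (0.0577) and without *M. arvensis* plant 13 or 15 or *M. suffruticosa* plant 6, 7 or 8 or *M. moricandioides* plant 8, 12 or 15 (up to 0.0396).

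The remaining lists are given beside 9.4% higher, 9.92% lower and 19.3% called over all tested transcripts. Of 28 growth hormone transcripts 4 were called higher and 4 lower in *M. arvensis* (28.6%), and 0 and 1 with the close libraries merged. Of 15 for phosphate starvation 3 and 1 were called (26.7%), and 1 and 0 when merged. The share was 19.4% for chloroplast positioning, division and import (4 and 2 of 31, and 1 and 0 when merged) and 17.6% for flavonoid synthesis (1 and 2 of 17, and 1 and 1 when merged). It was 15.4% for alternative respiration (1 and 1 of 13), 11.1% for sulfur assimilation (0 and 2 of 18), 10.5% for chlorophyll synthesis (1 and 1 of 19) and 10.0% for aquaporins (0 and 1 of 10), and none of these was called when merged.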
